A study of Mus musculus with 15 samples.

Results

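The genes described here are 10 genes of the white adipocyte, Adipoq, Plin1, Fabp4, Lep, Cfd, Retn, Lipe, Pparg, Cidec and Car3. They were taken as every non-control probe whose gene name in the raw array files was one of these symbols. All 10 were measured, as 10 of 22342 genes in the comparison, through 20 of the 56605 distinct probes of the array. Spontaneous mammary tumours of mice aged 20 weeks were profiled on 15 one-colour Agilent arrays, 1 tumour each. Both groups carried MMTV-PyMT, a transgene in which a mouse mammary tumour virus promoter, active mainly in mammary epithelium, drives the polyoma middle T oncogene. The 8 B6 tumours came from C57BL/6 mice and the 7 Wsh tumours from mice labelled Wsh. Wsh names an inversion upstream of the mast cell growth factor receptor gene Kit, and such mice lack mast cells. The series title asks how mast cells affect the phenotype of breast cancer cells.

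White adipocytes store fatty acids as triglyceride in a single large lipid droplet, release them by lipolysis between meals and secrete hormones called adipokines. The nuclear receptor PPAR gamma switches on most of their lipid genes during differentiation and maintains them afterwards. The mouse mammary gland is embedded in a pad of white fat, so tissue taken with a tumour can hold adipocytes. The arrays measured RNA of the whole tumour sample, in which fewer cells of a type and less RNA per cell cannot be told apart.

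Levels are log2 of the processed spot signal minus the 75th percentile of that signal on the same array, so that 0 is the 75th percentile and 1 unit is a doubling. Probes differ in brightness, so levels are compared between tumours and not between genes. The 75th percentile was between 3328 and 6406 intensity units on B6 arrays and between 3550 and 4582 on Wsh arrays. The share of spots with signal clearly above background was between 55.7% and 73.4%. Each of 2 slides held both groups. The level of Kit itself differed by -2.65 (Wsh minus B6, log2, SE 0.28, adjusted p = 0.000208 in limma). All 10 luminal epithelium markers, among them Krt8, Krt18 and Epcam, were measured in the tumours. Nothing in the labels ties each tumour to a separate mouse beyond its title, so the p-values describe spread among these samples only.

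The sequences behind the contrast that follows, between genes that varied together and Lep, are those of 3 probes. Each is 60 bases long, lies on the plus strand and has mm9 coordinates from the array files. The probe of Adipoq lies at chr16:23157576-23157635, that of Retn at chr8:3657312-3657371 and that of Lep at chr6:29020910-29020969. The probes that stood for the other genes lie at chr7:86866112-86866171 (Plin1), chr3:10204452-10204511 (Fabp4), chr10:79355302-79355361 (Cfd), chr7:26167986-26168045 (Lipe), chr6:115440213-115440272 (Pparg), chr6:113374693-113374752 (Cidec) and chr3:14871781-14871840 (Car3). No exon or UTR annotation of mm9 was used here.
Adipoq probe: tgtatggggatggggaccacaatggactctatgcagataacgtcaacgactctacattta
Retn probe: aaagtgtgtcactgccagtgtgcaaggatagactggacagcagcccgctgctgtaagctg
Lep probe: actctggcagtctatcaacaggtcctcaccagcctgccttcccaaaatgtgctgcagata
The RefSeq promoter table (build GRCm38.p6) held 12 promoters of 8 of the genes, and Fabp4 and Car3 were not matched. The 250 bases before the gene start are shown for Adipoq (chr16:23146286-23146535, plus strand), the gene against which the others are compared, and for Lep (chr6:29059971-29060220, plus strand), the gene that did not follow it. Capitals mark CCAAT on either strand in Adipoq and TTGCGCAA, which reads the same on both strands, in Lep.
Adipoq promoter: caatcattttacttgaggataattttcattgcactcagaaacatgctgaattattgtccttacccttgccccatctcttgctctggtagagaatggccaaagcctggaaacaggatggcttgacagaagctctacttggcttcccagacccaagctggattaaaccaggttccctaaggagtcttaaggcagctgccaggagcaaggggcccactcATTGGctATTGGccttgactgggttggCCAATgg
Lep promoter: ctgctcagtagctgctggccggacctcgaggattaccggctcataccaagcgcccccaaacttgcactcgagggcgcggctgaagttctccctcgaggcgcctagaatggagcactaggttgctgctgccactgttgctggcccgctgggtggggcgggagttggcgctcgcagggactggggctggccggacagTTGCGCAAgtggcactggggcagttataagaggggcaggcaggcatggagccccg
The matches in Adipoq begin 34, 27 and 7 bases before the gene start, and the match in Lep begins 55 bases before it. Searched on both strands over windows that also took in the 50 bases after the start, CCAAT occurred in 3 of the 12 promoters (of Adipoq and Pparg) and in 37.4% of 32851 promoters. TTGCGCAA occurred in 1 of the 12 (Lep) and in 0.183% of all. AGGTCA, a nuclear receptor core motif, occurred in 2 of the 12 (both of Pparg) and in 16.3% of all. TATAAA occurred in 1 of the 12 (Pparg) and in 13.6% of all. None of the 4 motifs contains another, and a match is only a run of letters in the window.

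None of the 10 genes passed the test between Wsh and B6, and the tumours of both groups overlapped for every gene. In 9 of 10 the mean was higher in Wsh, with a median log2 difference of 0.85 over the 10 genes, and Lep was the exception. Over all genes fitted, 48.2% were higher in Wsh, the median difference was -0.01 and 0.336% passed limma's adjusted p of 0.05. The adjusted p of the 10 genes ran from 0.754 to 0.926 (limma, Benjamini-Hochberg over 22342 genes). At an unadjusted p under 0.05 the count was 0 of 10, against 10.4% of all genes. Groups did not overlap for 0.358% of all genes and for 0 of the 10.

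The difference of the 10 genes rested largely on 1 tumour. B6 replicate 3 had the lowest level of all 15 tumours for 9 of 10 genes, and without it the median difference fell from 0.85 to 0.04, with 8 of 10 above 0. Without Wsh replicate 1 the median was 0.44. On slide 1, which held B6 replicate 3, the median was 1.58, and on slide 2 it was -0.13, with 3 of 10 above 0. With array weights it was 0.34. With the mean of the skeletal muscle genes as a covariate it was 0.07, with 6 of 10 above 0. That covariate averaged -3.02 in B6 and -0.41 in Wsh tumours, so this fit cannot fully separate it from group. None of the 10 genes passed in any of these fits.

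**Figure D1:**
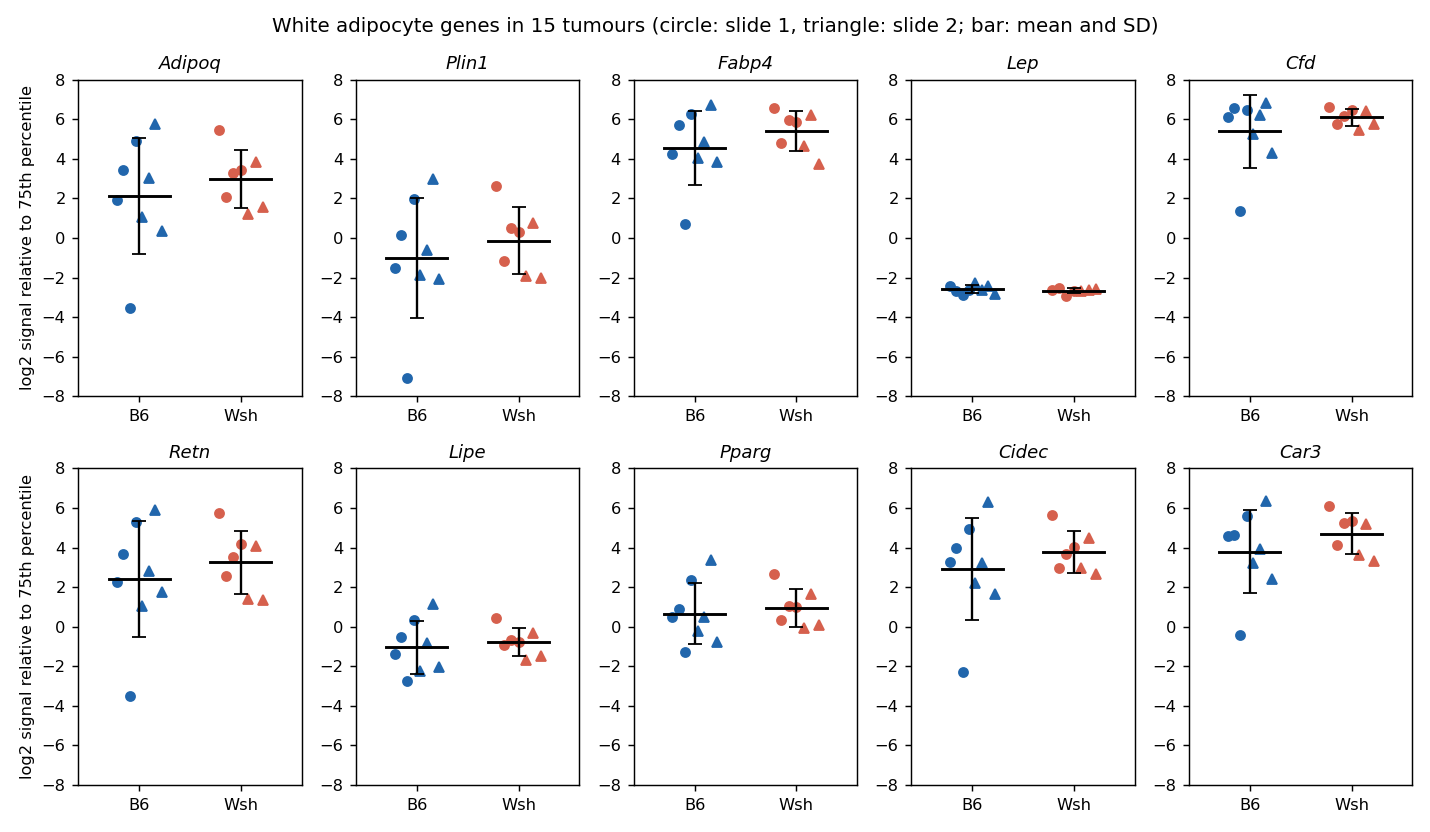
Level of each gene (log2 signal relative to the 75th percentile of its array) in the 8 B6 and 7 Wsh tumours, 1 point a tumour, with bars at the mean and SD; circles are slide 1 and triangles slide 2. The groups overlap in every panel, B6 replicate 3 is the lowest circle in 9 of the 10, and Lep lies between -2.92 and -2.29 in all tumours.

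Pparg, which encodes the nuclear receptor PPAR gamma, spanned -1.26 to 3.37 among B6 tumours (median 0.48) and -0.08 to 2.66 among Wsh tumours (median 1.0). The Wsh tumours lay inside the B6 range. The B6 mean was 0.67 ± 1.56 (SD, n = 8) and the Wsh mean 0.95 ± 0.97 (SD, n = 7), which differ by 0.28 (SE 0.63, limma adjusted p = 0.926). A second probe named for a Pparg transcript (mm9 chr6:115413557-115413616) was well above background on 0 of 15 arrays and was not tested.

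Among the secreted products, Adipoq encodes adiponectin, the most abundant hormone of white adipocytes. Its level spanned -3.55 to 5.75 among B6 tumours (median 2.48) and 1.19 to 5.48 among Wsh tumours (median 3.26). B6 held both the highest tumour, replicate 7, and the lowest, replicate 3. The means were 2.11 ± 2.92 (SD, n = 8) and 2.98 ± 1.49 (SD, n = 7), and the difference of 0.87 (SE 1.13, 95% interval -1.55 to 3.28, limma adjusted p = 0.857) was smaller than either SD. Without B6 replicate 3 the difference was 0.06 (SE 0.86).

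Retn encodes resistin, a small secreted protein made by mouse adipocytes. It spanned -3.51 to 5.92 among B6 tumours (median 2.55) and 1.36 to 5.76 among Wsh tumours (median 3.52). The same 2 B6 tumours were its extremes. The difference was 0.84 (SE 1.15, limma adjusted p = 0.864), and it was 2.06 on slide 1, -0.62 on slide 2 and -0.0024 without B6 replicate 3. Its second probe, a few kilobases downstream on the array's coordinates, followed the first with a Pearson r that rounds to 1.0 over the 15 tumours and gave a difference of 0.81.

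Cfd encodes complement factor D, also called adipsin, a protease of the alternative complement pathway secreted by adipocytes. Its level was 1.35 in B6 replicate 3, 4.29 in B6 replicate 8 and between 5.25 and 6.81 in the other 6 B6 tumours. All 7 Wsh tumours lay between 5.45 and 6.61, with a median of 6.17 against 6.19 in B6. The SD was 0.44 in Wsh (n = 7) and 1.83 in B6 (n = 8), a difference in spread that was not tested. The difference of means was 0.70 (SE 0.66, limma adjusted p = 0.779), and 0.13 without B6 replicate 3.

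Lep encodes leptin, the satiety hormone that adipocytes release in proportion to fat mass. It spanned -2.87 to -2.29 among B6 tumours (median -2.64) and -2.92 to -2.52 among Wsh tumours (median -2.64). The whole range over the 15 tumours was 0.63 log2 units, or 1.55-fold, and the SD over tumours was at the 11.4th percentile of all genes. The probe was well above background on all 15 arrays. The means were -2.60 ± 0.20 (SD, n = 8) and -2.66 ± 0.13 (SD, n = 7), which differ by -0.07 (SE 0.10, 95% interval -0.27 to 0.14, limma adjusted p = 0.876). Lep had 1 probe, so no second probe bears on its level. Whether this nearly constant signal came from Lep RNA or from other binding to the probe was not tested.

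Of the lipid droplet proteins, Plin1 encodes perilipin, which coats the droplet and controls access of lipases. It spanned -7.06 to 3.0 among B6 tumours (median -1.06) and -2.03 to 2.63 among Wsh tumours (median 0.28). In B6 replicate 3 the probe was not well above background, so that level is only a bound. Measured against the lowest signal well above background there, B6 replicate 7 was at least 245-fold higher, and with normexp background correction the range over tumours was 126-fold. The difference between groups was 0.87 (SE 1.20, limma adjusted p = 0.866). With normexp background correction it was 0.49, without B6 replicate 3 it was 0.01 and on slide 2 it was -0.67. Its other 2 probes gave differences of 1.04 and 1.01 and correlated with the first at 0.944 and 0.949.

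Cidec encodes a droplet protein that enlarges droplets by transferring lipid between them. It spanned -2.31 to 6.31 among B6 tumours (median 3.25) and 2.65 to 5.65 among Wsh tumours (median 3.65). B6 replicate 3 was its only tumour below 0. The difference was 0.86 (SE 0.97, limma adjusted p = 0.827), and 0.11 without that tumour. Lipe encodes hormone-sensitive lipase, which splits diglyceride during lipolysis. It spanned -2.75 to 1.16 among B6 tumours (median -1.11) and -1.67 to 0.46 among Wsh tumours (median -0.77), with a difference of 0.27 (SE 0.53, limma adjusted p = 0.917). The Wsh range again lay inside the B6 range. A second Lipe probe gave 0.36 and correlated with the first at 0.981, and another was well above background on 1 of 15 arrays and was not tested.

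Fabp4 encodes the fatty acid carrier of the adipocyte cytoplasm. It spanned 0.72 to 6.71 among B6 tumours (median 4.56) and 3.72 to 6.59 among Wsh tumours (median 5.85), with means of 4.55 ± 1.87 (SD, n = 8) and 5.40 ± 1.03 (SD, n = 7). The difference of 0.85 (SE 0.74, limma adjusted p = 0.754) was 1.57 on slide 1, -0.0046 on slide 2 and 0.30 without B6 replicate 3. Macrophages and capillary endothelium can also express Fabp4. Its second probe gave 0.88 and correlated with the first at 0.980. Car3 encodes carbonic anhydrase 3, an abundant cytosolic enzyme of fat that skeletal muscle also makes. It spanned -0.40 to 6.36 among B6 tumours (median 4.25) and 3.34 to 6.11 among Wsh tumours (median 5.21), and its difference of 0.92 (SE 0.81, limma adjusted p = 0.761) was 0.32 without B6 replicate 3. Its other 2 probes gave 1.03 and 0.97.

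**Figure D2:**
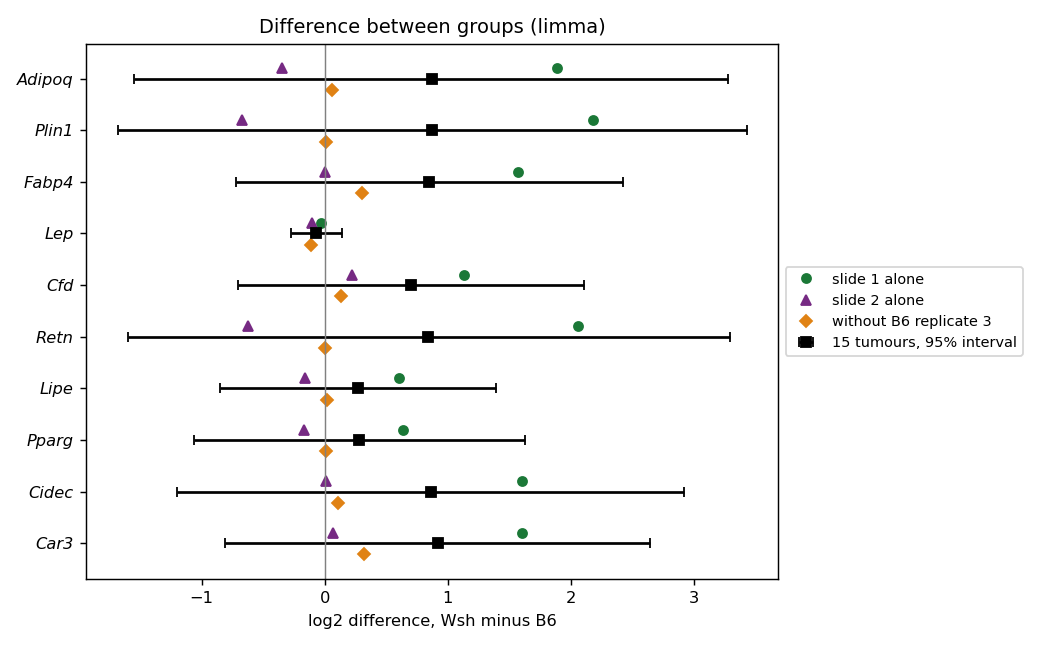
Log2 difference, Wsh minus B6, of each gene over the 15 tumours with limma's 95% interval (black squares), on each slide alone (green circles and purple triangles) and without B6 replicate 3 (orange diamonds). Each black interval spans 0, slide 1 lies right of slide 2 for every gene, and without B6 replicate 3 the differences lie between -0.11 and 0.32.

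Levels of most of these genes varied widely among tumours of the same group. B6 replicate 7 was the highest of the 15 tumours for 9 of 10 genes and Wsh replicate 1 was second for 9, while B6 replicate 3 was the lowest for 9. From lowest to highest tumour Adipoq ranged 631-fold (384-fold with normexp background correction), Retn 691-fold (422-fold) and Cidec 393-fold. Car3 ranged 108-fold, Fabp4 63.4-fold, Cfd 44.1-fold, Pparg 24.8-fold and Lipe 15.1-fold. Each fold is that of the probe that stood for the gene. A second probe of Fabp4 (-2.89 to 5.72), Car3 (-4.5 to 4.02), Lipe (-4.62 to 1.07) and Cfd (0.19 to 6.76) spanned more log2 units. The other probes of Retn and Plin1 spanned less. The folds therefore belong to these probes and do not rank the genes. The size of the folds also rested on B6 replicate 3. Without it Adipoq ranged 41.8-fold, Plin1 33.2-fold, Retn 29.0-fold, Cidec 25.4-fold, Pparg 17.9-fold, Car3 15.5-fold, Lipe 10.5-fold, Fabp4 7.92-fold and Cfd 5.74-fold, and Lep was at 1.55-fold as before. The SD over tumours of these 8 genes and Plin1 lay between the 95th and the 99.7th percentile of all genes, and without B6 replicate 3 between the 86.8th (Cfd) and the 98.9th (Plin1). That of Lep was at the 11.7th without it.

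**Figure D3:**
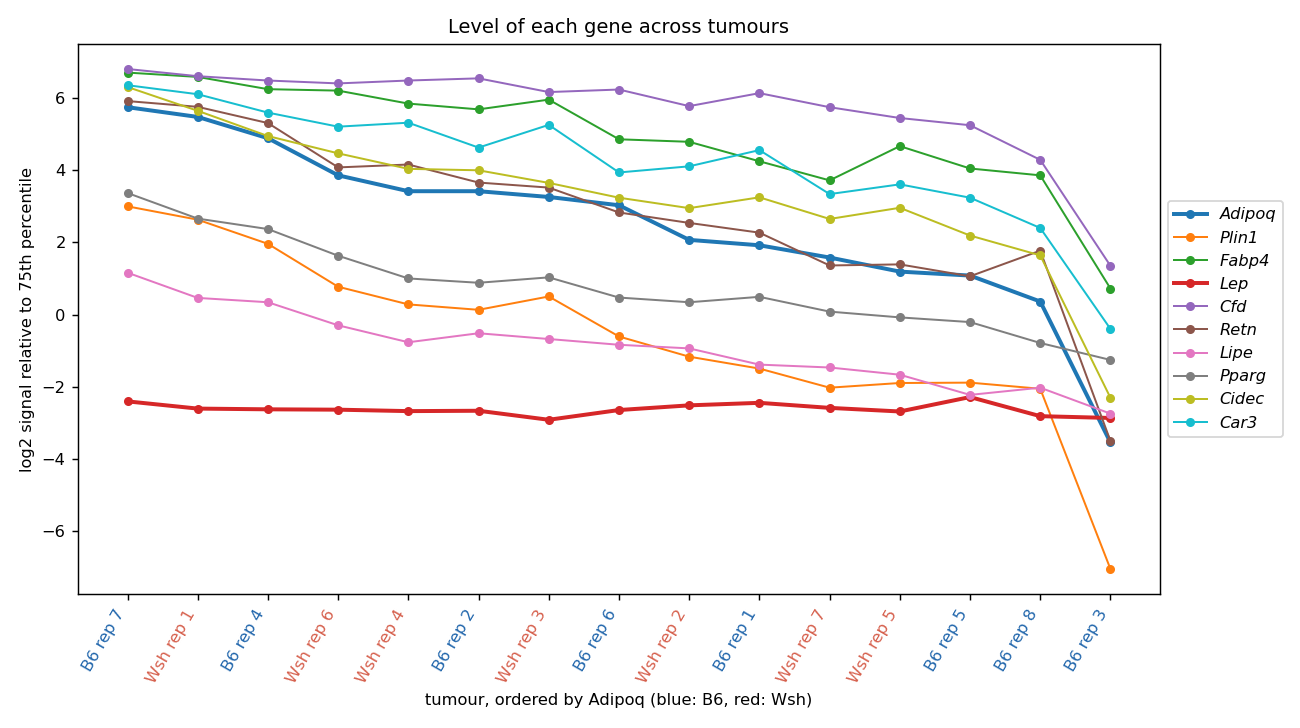
Level of the 10 genes (log2 signal relative to the 75th percentile of the array) in the 15 tumours, ordered from high to low Adipoq, 1 line a gene. Of the 10 lines 9 descend together and drop at B6 replicate 3, and that of Lep stays near -2.6; heights of different lines are not comparable because probes differ in brightness.

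The 9 other genes were each compared with Adipoq over the 15 tumours (Pearson r, two-sided permutation test with 100000 resamples, adjusted over 22306 genes). All but Lep rose and fell with it. Pearson r was 0.991 for Plin1, 0.986 for Retn, 0.985 for Cidec, 0.974 for Car3, 0.970 for Fabp4, 0.939 for Lipe, 0.926 for Pparg and 0.923 for Cfd. Spearman's rho of these 8 genes ran from 0.954 for Car3 to 0.993 for Lipe. The permutation p of each was 1e-05 for both measures, the smallest that the resampling can give, and the adjusted p of Pearson r was 0.000817. Over all genes, 13.9% passed in either direction, 6.88% had a positive correlation that passed, and 0.708% had an r of at least 0.9. Among 22307 genes ranked by r, Plin1 was 2, Retn 4, Cidec 5, Car3 12, Fabp4 16, Lipe 56, Pparg 89 and Cfd 95, with Adipoq itself at 1.

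The relation did not rest on the extreme tumours. Leaving out B6 replicates 3 and 7, the tumours farthest from the median of Adipoq, r was 0.865 for Cfd and between 0.926 and 0.976 for the other 7 genes. Within B6 tumours r of the 8 genes was between 0.914 and 0.991, and within Wsh tumours between 0.902 and 0.992. Within slide 1 it was between 0.941 and 0.998 and within slide 2 between 0.916 and 0.982. In fits over the 15 tumours, for each log2 unit of Adipoq, Plin1 changed by 1.05, Retn by 1.0, Cidec by 0.85, Car3 by 0.71, Fabp4 by 0.64, Cfd by 0.54, Pparg by 0.51 and Lipe by 0.43. Without B6 replicate 3 the slope was 0.36 for Cfd, 0.69 for Pparg and 0.57 for Lipe, so that the order of these 3 turned. Pparg then also lay above Car3 (0.66) and Fabp4 (0.59). The slopes belong to these probes and were not tested against each other.

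Lep stood apart from this pattern. Its r with Adipoq was 0.310 (permutation p = 0.263, adjusted p over all genes 0.455) and Spearman's rho was 0.250 (permutation p = 0.368). Without B6 replicates 3 and 7 r was -0.166. Within B6 r was 0.493 (exact permutation p = 0.215, n = 8) and within Wsh -0.108 (exact permutation p = 0.833, n = 7). Its slope was 0.02, and its rank among 22307 genes was 4830. The level was -2.41 in B6 replicate 7 and -2.87 in B6 replicate 3, a 1.38-fold difference between tumours whose Adipoq differed 631-fold.

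The 10 genes outside this set whose pattern was most like that of Adipoq, by Pearson r over 15 tumours, were Adrb3 (0.987), Ces1f (0.985), Slc7a10 (0.984), Slc36a2 (0.980), Mrap (0.979), Trarg1 (0.977), Pck1 (0.976), Serpina3c (0.973), Gm3289 (0.972) and Mup1 (0.971). Adrb3 is the beta-3 adrenergic receptor of adipocytes and Pck1 an enzyme on a route to the glycerol phosphate of triglyceride. Each was lowest in B6 replicate 3 and highest in B6 replicate 7, and none passed between Wsh and B6. In B6 replicate 3, 8 of the 10 were not well above background, all but Adrb3 and Mup1, so their level there is only a bound. Without that tumour r was between 0.938 and 0.985, and without B6 replicate 7 as well it was between 0.919 and 0.981. The choice of the closest 10 was not stable. Only 1 of the 10 was again among the closest 10 without B6 replicate 3, 5 were with normexp background correction and 6 with the deposited values. Mup1, Gm3289, Serpina3c and Ces1f belong to families with near-identical copies, and which copy the probe measured is uncertain.

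The wider set of adipocyte genes comprised 71 genes in 8 lists, all of them measured. None of the 71 passed between Wsh and B6 (limma), with 2 at an unadjusted p under 0.05, against 0.336% and 10.4% of all genes. Those were Srebf1, the sterol and lipid synthesis regulator (-0.35, SE 0.14, limma adjusted p = 0.371), and Rxra, the partner receptor of PPAR gamma (0.24, SE 0.11, limma adjusted p = 0.461). Of the 71, 47 correlated with Adipoq positively and 3 negatively at an adjusted permutation p of 0.05 over all 22306 genes, against 6.88% and 7.03% of all genes and 13.9% in either direction. The 3 negative ones were Plin3, Adipor1 and Cebpb, and their r was nearer 0 in Wsh tumours and without the extreme tumours. Within Wsh r was -0.25 for Plin3 (exact permutation p = 0.589, n = 7), -0.356 for Adipor1 (exact permutation p = 0.440, n = 7) and -0.253 for Cebpb (exact permutation p = 0.582, n = 7), against -0.933, -0.942 and -0.907 within B6, a difference between groups that was not tested. Without B6 replicates 3 and 7 r was -0.559, -0.585 and -0.384. By rank, rho was -0.671, -0.639 and -0.468 (unadjusted permutation p = 0.00784, 0.0125 and 0.0809), and that of Cebpb missed 0.05 even unadjusted. Rank p-values were not adjusted over all genes, so they are not held to the threshold used for r.

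Of the 8 adipokines and other secreted products, 5 followed Adipoq, among them Rbp4, the retinol carrier (r = 0.939), and Retnla, a relative of resistin (0.927), and none passed negatively. Their median difference between groups was 0.23, with Angptl4, an inhibitor of lipoprotein lipase, at 0.80 (SE 0.47, limma adjusted p = 0.603) and Apln, which encodes the peptide hormone apelin, at 0.69 (SE 0.40, limma adjusted p = 0.597). Of 5 adipokine receptors, the adiponectin receptor Adipor2 followed Adipoq (r = 0.725) and the other adiponectin receptor, Adipor1, ran against it (-0.777). The leptin receptor Lepr had an r of -0.595 and a difference between groups of 0.12 (SE 0.19, limma adjusted p = 0.889), and that of Adipor1 was -0.09 (SE 0.08, limma adjusted p = 0.778).

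Among 11 droplet and lipolysis genes, 5 followed Adipoq. Plin4, a perilipin of adipocytes, had an r of 0.965, Plin5 0.832 and Pnpla2, the first lipase of triglyceride breakdown, 0.749. Plin3, a perilipin that most cells make, ran against it (-0.800). Between groups Plin2 and Plin5 had differences of 0.17 (SE 0.19, limma adjusted p = 0.819) and 0.26 (SE 0.29, limma adjusted p = 0.827). Of 13 genes of fatty acid uptake and triglyceride synthesis, 12 followed Adipoq, led by Pck1 (0.976), lipoprotein lipase Lpl (0.955) and the fatty acid transporter Cd36 (0.951). The one that missed the threshold, Gpam, had an r of 0.649. Pck1 differed between groups by 1.15 (SE 1.20, limma adjusted p = 0.810) and Gpihbp1, which anchors lipoprotein lipase to capillaries, by -0.28 (SE 0.33, limma adjusted p = 0.839).

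Of 9 fatty acid synthesis genes, 7 followed Adipoq, with fatty acid synthase Fasn at 0.821 and Acaca, acetyl-CoA carboxylase, at 0.777. Elovl6, a fatty acid elongase, had a difference of 0.55 between groups (SE 0.49, limma adjusted p = 0.769). Of 9 adipogenic transcription factors, 5 followed Adipoq, namely Ebf2 (0.915), Ebf1 (0.890), Nr1h3 (0.863), Klf15 (0.821) and Cebpa (0.810). Cebpb, which acts early in differentiation and in many cell types, ran against it (-0.708). Zfp423, a preadipocyte factor, had an r of 0.140 and a difference of -0.31 (SE 0.21, limma adjusted p = 0.666).

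Of 8 genes of the insulin and adrenergic response, 5 followed Adipoq. Adrb3 had an r of 0.987, Trarg1, which acts in glucose transporter traffic, 0.977, and Pde3b, the phosphodiesterase through which insulin restrains lipolysis, 0.906, whereas the insulin receptor Insr had 0.094. Adrb3 differed between groups by 1.18 (SE 1.15, limma adjusted p = 0.791) and Adra2a, an inhibitory adrenergic receptor, by 0.21 (SE 0.20, limma adjusted p = 0.776). Of 8 further genes of mature adipocytes, 7 followed Adipoq, with Acvr1c, an activin-type receptor, at 0.965, Cyp2e1 at 0.957 and Orm1 at 0.931. Acvr1c had a difference of 0.67 (SE 0.91, limma adjusted p = 0.865) and Orm1 of 0.96 (SE 1.01, limma adjusted p = 0.811). Orm1, Arxes1 and Arxes2 have near-identical copies and are uncertain.

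**Figure D4:**
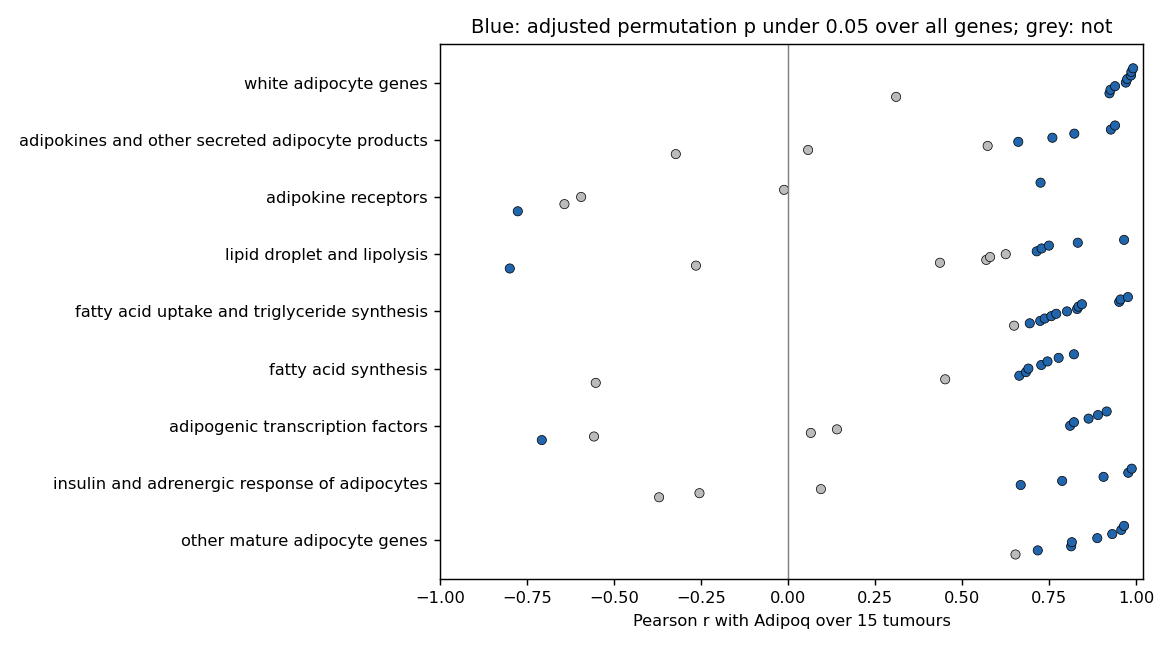
Pearson r with Adipoq over the 15 tumours for the other 9 white adipocyte genes and the 71 genes of 8 further lists, 1 point a gene; blue points had an adjusted permutation p under 0.05 over all genes and grey points did not. In the top row 8 points lie at 0.923 or above and Lep at 0.310, and 3 blue points lie left of 0 (Plin3, Adipor1 and Cebpb).

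Markers of other cells were compared with Adipoq in the same tumours through the mean of each of 8 lists, with p-values adjusted over the 8. Preadipocyte and stroma genes followed Adipoq (r = 0.852, rho = 0.821, permutation adjusted p = 8e-05), as did macrophage genes (r = 0.881, rho = 0.80, permutation adjusted p = 8e-05) and endothelium genes (r = 0.787, rho = 0.879, permutation adjusted p = 0.00131). Without B6 replicates 3 and 7 these were 0.816, 0.852 and 0.831. Brown adipocyte genes also followed it (r = 0.638, rho = 0.825, permutation adjusted p = 0.0156, r = 0.719 without those tumours). Luminal epithelium genes, markers of the tumour cells, ran against it by Pearson r (-0.725, permutation adjusted p = 0.00692) but not past the threshold by rank (rho = -0.493, permutation adjusted p = 0.105), and r was -0.503 without those tumours, so that the relation rests in part on them. For skeletal muscle r was 0.356 (permutation adjusted p = 0.257), for milk and alveolar genes 0.305 (permutation adjusted p = 0.307) and for keratinocyte genes -0.181 (permutation adjusted p = 0.450).

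The relations were also taken within groups and slides, with an unadjusted exact permutation test in each. Macrophage genes had an r of 0.916 in B6 and 0.778 in Wsh, and 0.936 and 0.826 on slides 1 and 2, with a largest exact p of 0.0335. Stroma genes had 0.931 and 0.731 in the groups, and 0.833 and 0.912 on the slides, and missed 0.05 in Wsh (exact p = 0.0673). Endothelium genes had 0.803 and 0.856, and 0.763 and 0.964, with a largest exact p of 0.0349. Brown adipocyte genes had 0.774 and 0.619, and 0.567 and 0.929, and missed 0.05 in Wsh (exact p = 0.141) and on slide 1 (exact p = 0.142). Luminal genes had -0.828 and -0.508, and -0.857 and -0.452, and missed 0.05 in Wsh (exact p = 0.257) and on slide 2 (exact p = 0.308).

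**Figure D5:**
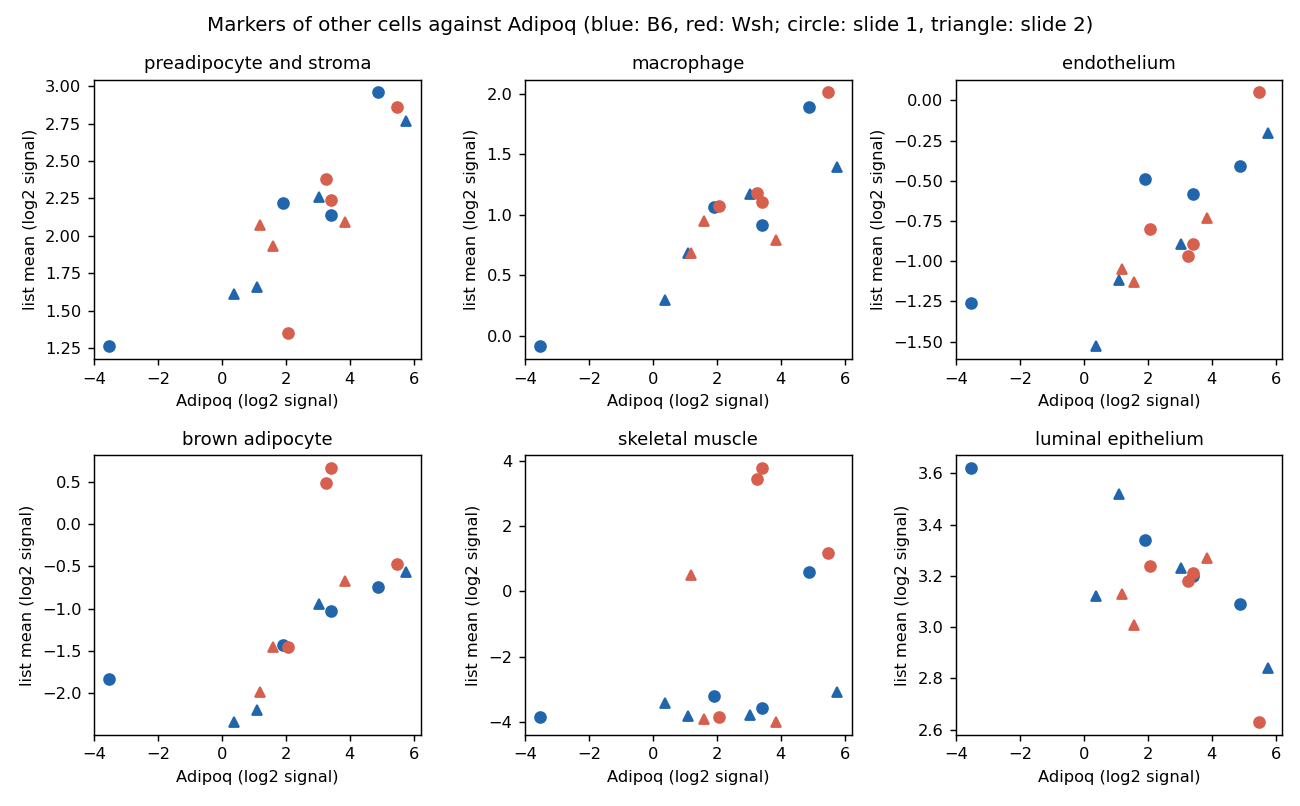
Mean level of 6 lists of markers of other cells (vertical, log2 signal relative to the 75th percentile) against Adipoq (horizontal, the same scale) in 15 tumours, blue for B6, red for Wsh, circles for slide 1 and triangles for slide 2. Stroma, macrophage and endothelium means climb with Adipoq, B6 replicate 3 is the leftmost point in each panel, and the skeletal muscle mean lies above 0 in 5 tumours and below -3 in the other 10.

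Between the groups, the lists with the largest median differences were those of skeletal muscle and brown adipocytes, although no gene of either passed. Of 12 skeletal muscle genes 10 were measured, all higher in Wsh, with a median log2 difference of 3.16, 0 past the threshold and 3 at an unadjusted p under 0.05 (limma), against 0.336% and 10.4% of all genes. Their mean level spanned -3.84 to 0.60 among B6 and -4.01 to 3.78 among Wsh tumours, and the tumours above 0 were B6 replicate 4 and Wsh replicates 1, 3, 4 and 5. Ckm and Actn3 were not measured. Myh2, a fast myosin, had a difference of 3.31 (SE 1.27, limma adjusted p = 0.368) and Tnni2, fast troponin I, of 3.23 (SE 1.33, limma adjusted p = 0.410). Myh2 was well above background in 6 of 8 B6 and 4 of 7 Wsh tumours, Myh1 in 3 and 4, Myh4 in 4 and 4 and Tnnt3 in 7 and 7. The other measured genes, with Tnni2, were so in all tumours. Levels not above background are only bounds, so the size of the differences of these 4 genes is uncertain. Without the 5 tumours whose skeletal muscle mean lay above 0, the median difference of the white adipocyte genes was 0.64, with 10 of 10 above 0. That fit left only Wsh replicates 2, 6 and 7 and still held B6 replicate 3, without which the median over the other tumours was 0.04. B6 replicate 3 and the 5 tumours were not left out together.

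Of 8 brown adipocyte genes 7 were measured and all 7 were higher in Wsh, with a median difference of 0.66, 0 past the threshold and 1 at an unadjusted p under 0.05 (limma), read against the same shares of all genes. Their mean spanned -2.34 to -0.57 among B6 and -1.98 to 0.66 among Wsh tumours. Only Wsh replicates 3 and 4 lay above 0 (0.48 and 0.66), and these also had the highest skeletal muscle means (3.45 and 3.78). The other Wsh tumours lay between -1.98 and -0.47. Ucp1, the uncoupling protein that defines brown fat, was well above background in 3 of 8 B6 and 4 of 7 Wsh tumours, and Elovl3 was not measured. Dio2, which activates thyroid hormone, had a difference of 0.66 (SE 0.31, limma adjusted p = 0.478) and Prdm16, a brown fat regulator, of 0.91 (SE 0.63, limma adjusted p = 0.672).

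The remaining lists differed less between groups. Of 10 macrophage genes 9 were higher in Wsh (median 0.28), with Mertk at 0.62 (SE 0.31, limma adjusted p = 0.519) and Fcgr1 at 0.50 (SE 0.26, limma adjusted p = 0.546). The lowest macrophage mean of all tumours was that of B6 replicate 3 (-0.09), and the median of this list was not taken without that tumour. Of 10 stroma genes 4 were higher (median -0.04), with Dpp4 at -0.50 (SE 0.25, limma adjusted p = 0.509) and Pi16 at 0.59 (SE 0.41, limma adjusted p = 0.674), both of them markers of fibroblast progenitors. Of 10 endothelium genes 4 were higher (median -0.01), with Kdr, a receptor for vascular growth factor, at 0.36 (SE 0.17, limma adjusted p = 0.459) and Emcn at -0.07 (SE 0.14, limma adjusted p = 0.913). Of 10 luminal genes 1 was higher (median -0.13), with the claudins Cldn3 at -0.28 and Cldn4 at -0.33. Milk genes had a median of 0.07, with Lalba at -0.38 (SE 0.24) and Csn2 at 2.65 (SE 1.84). Csn2 was well above background in 6 of 8 B6 and 6 of 7 Wsh tumours, so the size of its difference is uncertain. Keratinocyte genes had a median of 0.19, with Krt10 at 0.42 (SE 0.25) and Krtdap at 0.98 (SE 0.83). Their mean was -0.59 in Wsh replicate 2 and -2.35 or lower in the other Wsh tumours. None of these genes passed the threshold. The part of these cells in the values of the white adipocyte genes was not tested beyond the skeletal muscle covariate and the fits given above. The covariate itself differed in mean between the groups, so its fit does not settle that part.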

How the data were processed

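Total RNA of mammary tumours was amplified with Cy3 and hybridised to 1-colour Agilent arrays, per the labels' protocols. Spot intensity was read with Agilent Feature Extraction 10.7.3.1, per the file headers, which subtracts background and detrends each array but does not normalize between arrays. A second deposited file holds log2 values of the same arrays. Its columns followed the rank order of their own array's signal (Spearman rho 0.999, at most 0.975 with any other array), their medians ran from 8.85 to 8.86, and no source used here gives its centring or normalization, so it served as an alternative.

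Outlier-flagged spots were left out and spots of a probe averaged. Probes were named through RefSeq GRCm38.p6 tables by accession (32994), symbol (10224) or synonym (520), and 12867 kept the file's name. A probe was kept when 7 or more of the 15 arrays flagged it as well above background (34346 probes), and the brightest probe by mean over arrays stood for a gene (22342 genes). Log2 of the processed signal minus the array's 75th percentile was tested by limma 3.58.1 under R 4.3.3 (lmFit, eBayes, two-sided, Benjamini-Hochberg, adjusted p 0.05). A level not well above background was replaced for a fold by the lowest signal well above background on that array. Exact permutation tests were used within groups and slides. The steps were tested on simulated data. The number of arrays limits the precision.

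The members and gene lists were chosen with earlier results of these data known. Genes named are the 10 members, the 2 genes of each other list with the largest moderated t, and the 10 non-members with the highest r with Adipoq. Other list genes are named beside their list's correlations and were chosen after their values were seen, as were the pathway correlations and the promoter search. Alternatives were normexp (offset 50), quantile or median scaling, deposited values, filters, probe rules, slide or replicate blocks, each slide, array weights, eBayes with trend and robust options, a skeletal muscle covariate, leaving out each array and, chosen after seeing the data, leaving out the 5 arrays high in skeletal muscle, and the ranges and closest genes under other values or without B6 replicate 3.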

Additional observations from a re-analysis of the deposited data

Results flagged for a closer look

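Within each group, the 10 white adipocyte genes and the means of the 8 lists of other cells were searched for outlying tumours. An outlying tumour was one whose gap to its nearest neighbour was large against the whole range of the group (Dixon's 95% critical value, 0.526 for 8 tumours and 0.568 for 7). Of 36 sets of values 7 were found, and chance gives about 1 in 20. Cfd in B6 had B6 replicate 3 at 1.35, a gap of 0.538 of the range. Lep in Wsh had Wsh replicate 3 at -2.92, a gap of 0.591 of a range of under 1 log2 unit. The skeletal muscle mean in B6 was highest in B6 replicate 4, at 0.60 (0.833). In Wsh replicate 1 the endothelium mean was highest at 0.05 (0.660), the macrophage mean highest at 2.01 (0.621) and the luminal epithelium mean lowest at 2.63 (0.601). That tumour had the second highest level of 9 of the 10 white adipocyte genes. The keratinocyte mean was highest in Wsh replicate 2, at -0.59 (0.657).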

How the results depend on the processing

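Under 31 other settings the count of white adipocyte genes past the threshold was 0, as was that of the 71 pathway genes, and the adjusted p of the 10 genes ran from 0.528 to 1.0 (limma). Of 309 single-gene differences, 297 kept their sign. Signs turned on slide 2 alone for Adipoq (-0.35), Plin1 (-0.67), Fabp4 (-0.0046), Retn (-0.62), Lipe (-0.16) and Pparg (-0.17), and with the skeletal muscle covariate for Plin1 (-0.00017), Lipe (-0.03) and Pparg (-0.12). Lep turned to 0.01 without the 5 arrays high in skeletal muscle. With 1 array left out, Retn ran from -0.0024 to 1.35, Pparg from -0.00094 to 0.67 and the median of the 10 genes from 0.04 to 1.22. The cause was not tested. By Pearson r over both groups and slides, 8 genes and 5 lists correlated with Adipoq past the threshold under other scalings, with group or slide means removed and with any 1 array left out, but brown adipocyte, stroma and luminal lists missed it within some groups or slides and the luminal list by rank. Same-numbered tumours of the groups deviated together little or not at all (r from -0.243 to 0.211). Nothing in the labels says that the numbers pair tumours, and a low r cannot show that they do not. With a replicate block over the 7 shared numbers, which leaves out B6 replicate 8, the median difference was 0.65, with 9 of 10 above 0 and 0 called. Genes called over the whole array fell from 75 to 15 with the block, and to 33 on leaving out B6 replicate 8 alone. Over the settings that whole-array count ran from 1 to 199. A level not above background, as that of Plin1 in B6 replicate 3, is only a bound.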
